A study of Mus musculus with 4 samples.

Results

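Nbas, Vwa8 and Exoc4 are mouse genes that each gave rise to many different circular RNAs (circRNAs) in primary articular chondrocytes. A circRNA belonged to one of them when both ends of its back-splice junction lay inside the RefSeq span of the gene in mm10, with a tolerance of 1 bp. By this rule 195 of the 40909 circRNAs listed were members, 69 from Nbas, 67 from Vwa8 and 59 from Exoc4. The 3 genes were chosen by measured values, their number of circles and their summed junction reads, so those values are a description and not a finding.

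The libraries came from cultured primary mouse articular chondrocytes, the cells of joint cartilage, at passage 1 to 3. Cells of 2 libraries had received recombinant human interleukin-1β (IL-1β, an inflammatory cytokine), 10 ng/ml over 24 h, and 2 further libraries were controls. In all 4, ribosomal RNA had been removed and RNase R, an exonuclease of linear RNA, applied. Junction reads totalled 895774 and 980542 under IL-1β and 1198010 and 1203855 in the controls. Nothing in the labels ties the libraries of a group to separate cultures or animals. The p-values therefore measure the spread between these libraries alone, which may be technical.

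A circRNA forms when the splice donor at the end of a downstream exon is joined back to the splice acceptor at the start of an upstream exon. Reads across that join count the circle whatever the length of the RNA, and 1 gene can yield many circles when several donors and acceptors are joined in different pairs. Nbas encodes a subunit of a tethering complex at the endoplasmic reticulum, with Rint1 and Zw10, that receives vesicles returning from the Golgi, and in human cells it has also been linked to nonsense-mediated mRNA decay. Vwa8 encodes a mitochondrial protein with AAA+ ATPase and von Willebrand factor A domains. Exoc4, also called Sec8, encodes a subunit of the exocyst, the complex that tethers secretory vesicles to the plasma membrane. All 195 circles lay on the plus strand, so the lower coordinate of each (its start) is on the acceptor side of the join and the higher coordinate (its end) is on the donor side. Exon positions were not used here.

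Circle and read numbers of the 3 genes stood as follows. Nbas (chromosome 12, 13269101 to 13637380) carried 7353 reads, which placed it 6th of 6930 hosts by circles and 83rd by reads. Vwa8 (chromosome 14, 78849058 to 79202310) carried 5233 reads and ranked 8th and 144th. Exoc4 (chromosome 6, 33249090 to 33973979) carried 4422 reads and ranked 10th and 180th. Pappa shared the Nbas rank with 69 circles and 7447 reads, and Dennd1a and Fn1, next after Exoc4, had 58 circles each with 5330 and 721 reads. Exoc4 spans 724.9 kb, against 368.3 kb for Nbas and 353.3 kb for Vwa8, so it had 8.14 circles per 100 kb of gene where Nbas had 18.7 and Vwa8 18.97. Over 2589 hosts with at least 5 circles, circle number had a Spearman correlation of 0.43 with gene span and 0.63 with reads, which share the same 4 libraries.

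The circles left the outer parts of each gene free. The first start lay 2063 bp into Nbas, 16850 bp into Exoc4 and 59065 bp into Vwa8, and the last end lay 27346, 52442 and 19179 bp before the ends of those genes. In Nbas and in Exoc4 the circles overlapped in a single chain. In Vwa8 no circle crossed the 16089 bp between 79065024 and 79081113, which separated an upstream block of 53 circles with 4761 reads from a downstream block of 14 circles with 472 reads (9.02% of the gene). The downstream block had 121 and 103 reads under IL-1β, against 193 and 55 in controls, with both IL-1β values between those of the controls.

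**Figure D1:**
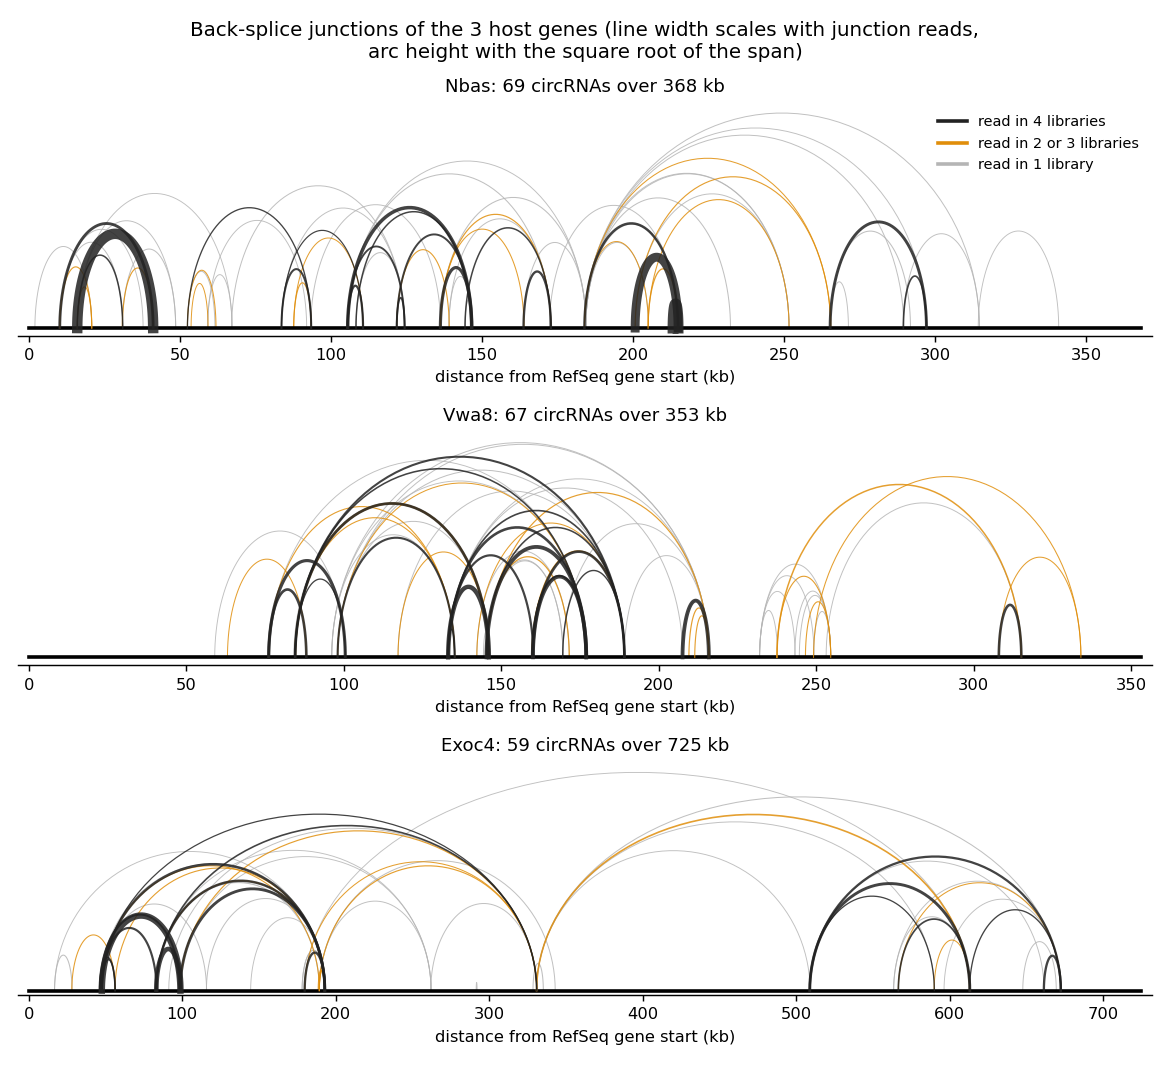
Back-splice junctions drawn as arcs from start to end along each gene, against distance from the RefSeq gene start in kb. Line width scales with reads over the 4 libraries, and colour gives the number of libraries a circle was read in. Thick arcs near 16 to 41 kb and 213 to 215 kb of Nbas mark its leading circles, and the gap in Vwa8 lies between its 53 upstream and 14 downstream circles.

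Circles of Exoc4 were the widest of the 3 genes. Their median span (genomic distance between the ends) was 77158 bp, against 29037 bp in Vwa8 and 26595 bp in Nbas. Of the 59 Exoc4 circles 37 spanned at least 50 kb, and these held 63.3% of the reads of the gene. In Vwa8 21 of 67 circles were that wide, with 20.1% of the reads, and in Nbas 12 of 69, with 1.90%. Wide circles were thus read often in Exoc4 and rarely in Nbas, although Nbas circles of 10 kb or more still held 68.6% of its reads. Of circles with at least 20 reads the narrowest and the widest were circRNA.5693 (1658 bp) and circRNA.5689 (64734 bp) in Nbas, circRNA.9506 (2066 bp) and circRNA.9494 (104535 bp) in Vwa8, and circRNA.32444 (3659 bp) and circRNA.32422 (283345 bp) in Exoc4.

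The ends of each gene were combined in many pairs. Nbas used 27 starts and 30 ends, whose possible pairs with the start before the end number 479, and 14.4% of these pairs were seen. Vwa8 used 31 starts and 20 ends (16.6% of 403 pairs) and Exoc4 26 starts and 20 ends (19.3% of 306 pairs). The busiest end of all 3 genes was 33442039 in Exoc4, which closed 11 circles and held 24.0% of the Exoc4 reads. It was followed in Exoc4 by the ends 33580078 and 33921537 with 7 circles each, and by the starts 33332211 with 8 circles and 33296733 with 7 (20.4% and 29.9% of the reads).

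In Vwa8 the end 79038201 closed 10 circles and 79026077 and 79065005 closed 9 each. The start 78982236 opened 8 circles that held 21.0% of the Vwa8 reads, and 78933666 and 78947141 opened 5 each. In Nbas the ends 13415731 and 13484044 closed 6 circles each, and the second of these held 38.0% of the reads of the gene. The Nbas start 13453053 opened 6 circles but held 3.77% of the reads, while 13285183, with 5 circles, held 19.5%. Among Nbas starts the start with the most circles thus did not hold the most reads, whereas among Vwa8 starts it did.

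Most of the variety was in circles with few reads. Of the 195 circles 92 (47.2%) were read in 1 library only, against 58.6% of all circRNAs listed, and 58 were read in all 4. No circle read in 1 library had more than 38 reads. Of the 99 circles with under 20 reads 0 were read in all libraries and 86 were read in 1, while 44 of the 46 circles with at least 100 reads were read in all 4. By gene, the circles read in all libraries numbered 20 in Nbas, 20 in Vwa8 and 18 in Exoc4, and held 90.3%, 82.7% and 84.6% of the reads. Nbas had 35 and 30 circles in the libraries under IL-1β, against 48 and 34 in controls. Vwa8 had 37 and 38 under IL-1β, against 40 and 34 in controls, and Exoc4 had 29 and 34 under IL-1β, against 32 and 35 in controls. The circle numbers of the groups overlapped in all 3 genes.

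Reads of Vwa8 and Exoc4 were spread over more circles than those of most other hosts with 50 to 80 circles. The effective number of circles, which is the inverse of the summed squared read shares and equals the circle number when all are read alike, was 21.2 in Vwa8, 14.5 in Exoc4 and 9.83 in Nbas. In the other 19 hosts with 50 to 80 circles it ran from 2.41 to 14.7 with a median of 7.33. Vwa8 stood above all 19, Exoc4 above 18 and Nbas above 14. The 19 hosts had a median of 54 circles, and Nbas and Vwa8 had more circles than 17 of them and Exoc4 than 16. The effective number was not divided by circle number, so these ranks include the difference in circle number. The top 5 circles held 37.8% of the reads in Vwa8 and 46.6% in Exoc4, both below the 48.96% to 83.7% in those hosts, and 60.9% in Nbas. The median of the 19 hosts was 5856 reads, and Nbas had more reads than 10 of them, Vwa8 than 7 and Exoc4 than 4. Per circle Nbas had 106.6 reads, Vwa8 78.1 and Exoc4 74.9, against a median of 107.9. The fewest reads were in Fn1 (721), Dock1 (1869) and Vps13b (3855). These values rest on the same reads that chose the genes and were not tested.

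**Figure D2:**
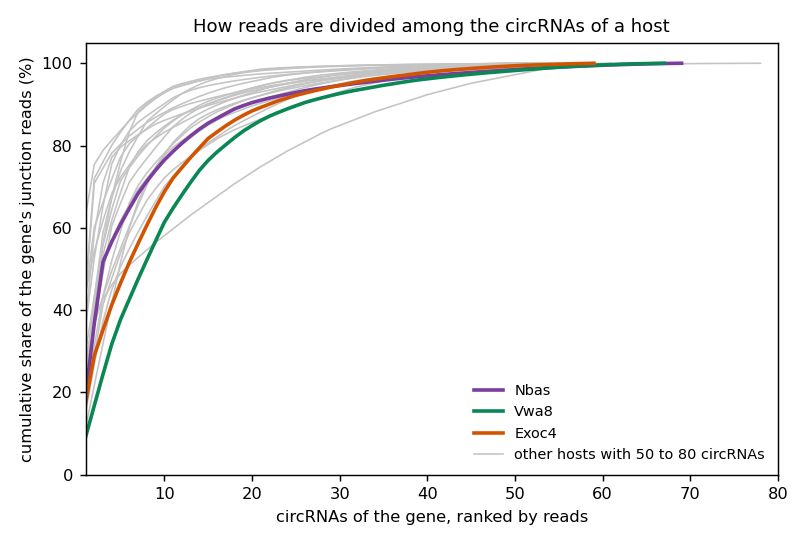
Cumulative share of the junction reads of a gene (%) against its circRNAs ranked by reads, for Vwa8, Exoc4, Nbas and the other 19 hosts with 50 to 80 circRNAs. Vwa8 runs lowest over the first ranks, with 37.8% of its reads in 5 circles.

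The design asked whether IL-1β changed circRNA output, and the summed output of all 3 genes did not pass the test. Nbas had 1508 and 1423 junction reads in the IL-1β libraries, against 2471 and 1951 in the controls. Scaled to a common library total (CPM, with TMM factors for library composition), these reads gave 1577 ± 149 CPM under IL-1β, against 1910 ± 285 CPM for controls (SD, n = 2 each, here and throughout). All Nbas values under IL-1β lay below both controls. The log2 change was -0.28 ± 0.19 (SE), and edgeR's quasi-likelihood test with Benjamini-Hochberg adjustment over 4879 hosts gave 0.910 as the adjusted p.

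Exoc4 had 897 and 971 reads under IL-1β against 1343 and 1211 in control. This gave 1002 ± 2.26 CPM under IL-1β and 1104 ± 61.8 CPM in control, without overlap, and a log2 change of -0.14 ± 0.19 (adjusted p = 1.00, same edgeR test). Vwa8 had 1170 and 1156 reads under IL-1β against 1546 and 1361 in control. Its levels of 1250 ± 77.8 CPM under IL-1β and 1256 ± 91.6 CPM in control overlapped, and the log2 change was -0.01 ± 0.19 (adjusted p = 1.00). The sign of the Vwa8 change turned to 0.04 with library totals in place of TMM factors and to 0.11 without control replicate 1. Over all hosts 0 (0.0%) passed in edgeR, 222 (4.55%) had an unadjusted p under 0.05 (2.09% higher and 2.46% lower under IL-1β) and 55 (1.13%) passed in DESeq2, and none of the 3 genes was among these. Groups without overlap were seen in 35.9% of hosts, so the lack of overlap in Nbas and Exoc4 is common in this data set. Scaling by the depth behind the authors' SRPBM values moved the median of all hosts from -0.03 to -0.24, so log2 changes are relative to the bulk of hosts.

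**Figure D3:**
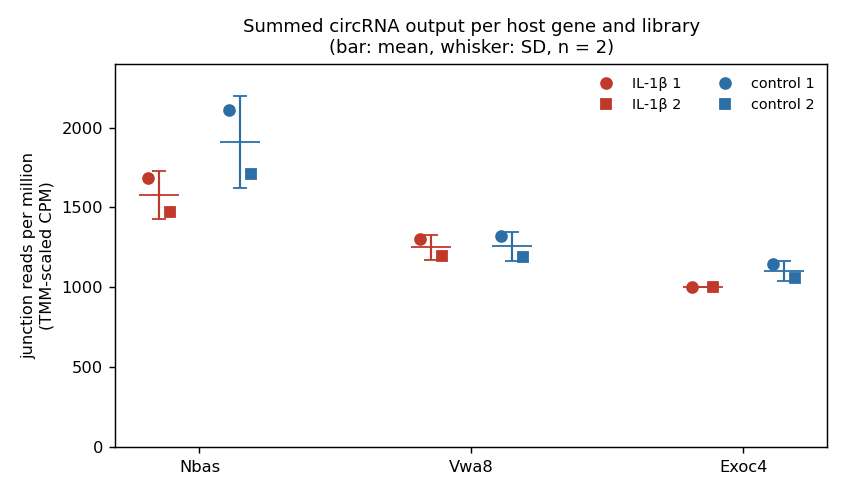
Summed level (CPM) of Nbas, Vwa8 and Exoc4 in each library, IL-1β left of control, with the mean (bar) and SD (whisker, n = 2). Nbas averaged 1577 CPM under IL-1β and 1910 CPM in control, and the other pairs of means lie closer together.

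Of the 195 circles 96 had at least 20 reads over the libraries and were tested, and 0 passed in edgeR's quasi-likelihood test, against 3 of all 15333 circRNAs tested (0.0196%). With an unadjusted p under 0.05 there were 2 members higher and 2 lower, against 1.83% and 1.62% of all tested circRNAs (3.44% together). In DESeq2 1 member passed, against 0.691% of all. CPM did not overlap between the groups for 25 of the 96 (16 higher and 9 lower), a share of 26.0%, against 33.5% of all tested circRNAs. Among the 58 members read in all 4 libraries, the log2 change was above 0 in 24 and below 0 in 34, and its median was -0.05. For all 6873 such circRNAs the median was 0.00. None of these shares was read as a result about the members.

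The leading Nbas circles differed in direction. The most read was circRNA.5693 (chromosome 12, 13482386 to 13484044), with 408 and 315 reads under IL-1β against 351 and 308 in control. It stood at 386 ± 88.8 CPM under IL-1β and 276 ± 34.2 CPM in control, a log2 change of 0.48 ± 0.29 (adjusted p = 0.886 in edgeR). Next was circRNA.5636 (13285183 to 13310304), with 155 and 173 reads under IL-1β against 584 and 407 in control. Its level was 174 ± 4.91 CPM under IL-1β and 417 ± 118 CPM in control, 2.40-fold lower under IL-1β. The log2 change was -1.26 ± 0.30 with an unadjusted p of 0.00544 and an adjusted p of 0.886 in edgeR, while DESeq2 gave an adjusted p of 0.0035. Over all alternatives the adjusted p ran from 0.0035 to 1.00. The CPM of the groups did not overlap for either circle.

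The reads of circRNA.5636 for each read of circRNA.5693 were 0.38 and 0.549 under IL-1β, against 1.66 and 1.32 in the controls. They are the most-read Nbas circles and also those with the lowest p in each direction. The difference of this ratio between the groups thus restates their changes, and it was not tested. The share of Nbas reads in circRNA.5693 was 27.1% and 22.1% under IL-1β and 14.2% and 15.8% in control. With 2 libraries against 2 no exact permutation test of such a share can reach a p under 0.05. Without circRNA.5636 the log2 change of Nbas as a host was -0.08, against -0.28 with it, a comparison added after the data were seen. Without the leading circle circRNA.5693 it was -0.45 (adjusted p = 0.881 in edgeR). The size of the Nbas change thus depended on which circle was left out, and its sign did not. The Exoc4 change was -0.25 without its leading circle, against -0.14 with it.

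The ends of circRNA.5636 were also examined, and since this circle supplied 1319 of the 1434 reads at its start and of the 1619 at its end, their values largely restate its own. Summing reads over every circle that uses a given end was an analysis added after the data were seen, and 2 of 23034 ends (0.00868%) passed in edgeR's test, neither in these genes. In DESeq2 3 of the 98 member ends tested passed, against 0.79% of all ends. With a replicate block, and without a read filter, the 2 ends of circRNA.9495 passed instead. The Nbas start 13285183 had 169 and 196 reads under IL-1β against 637 and 432 in control (log2 change -1.24 ± 0.29, adjusted p = 0.903 in edgeR). The end 13310304 had 221 and 218 reads under IL-1β against 676 and 504 in control (-1.12 ± 0.27, adjusted p = 0.903). These ends had the lowest unadjusted p of the 98 member ends tested, 0.00422 and 0.00463, and both passed in DESeq2 (adjusted p = 0.004 and 0.00419). Of the other circles at these ends, circRNA.5633, which joins 13310304 to the start 13279388, had 59 and 45 reads under IL-1β against 68 and 97 in control, and circRNA.5635, from the start 13285183, had 7 and 17 under IL-1β against 37 and 25 in control. From the same start circRNA.5634 had 7 and 6 reads under IL-1β against 7 and 0 in control, a log2 change above 0 (1.18 ± 3.33).

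The other leading Nbas circles did not pass either. Near the leading circle lies circRNA.5687 (13469841 to 13484044), which shares its end and had 217 and 247 reads under IL-1β against 333 and 310 in control (log2 change -0.13 ± 0.26). For circRNA.5657 (13374696 to 13415731) the reads were 55 and 65 under IL-1β against 113 and 125 in control, and it stood at 63.5 ± 4.36 CPM under IL-1β and 99.5 ± 3.96 CPM in control (log2 change -0.65 ± 0.38, adjusted p = 0.886 in edgeR). For circRNA.5665 (13405374 to 13415731) they were 75 and 82 under IL-1β against 96 and 59 in control (log2 change 0.35 ± 0.45). Of tested Nbas circles with a positive log2 change the next lowest p was that of circRNA.5668, which had all its 21 reads in IL-1β 2.

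**Figure D4:**
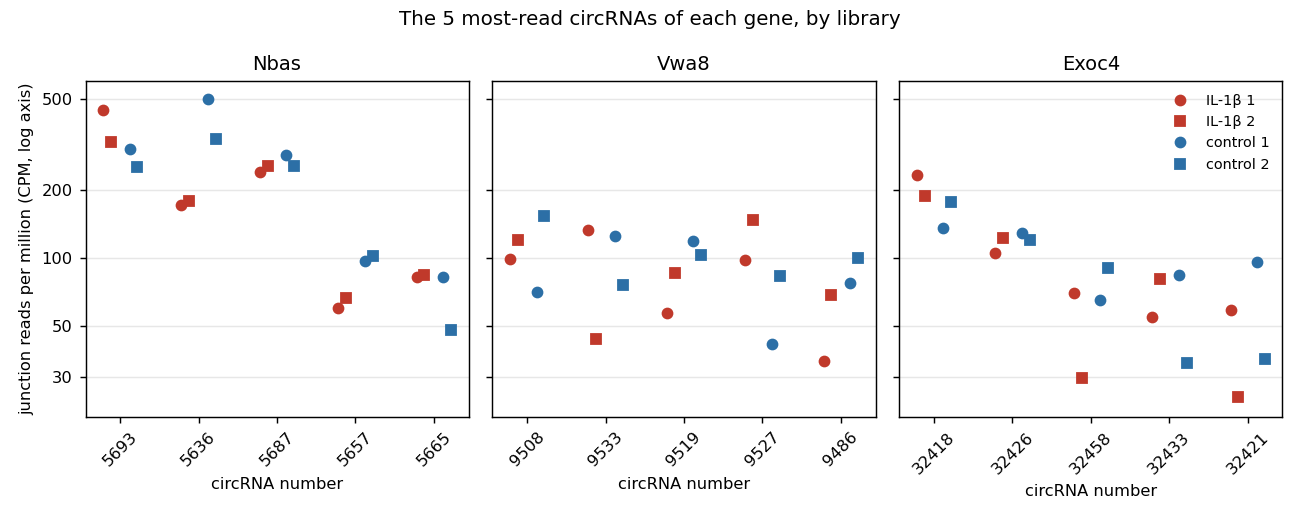
Level (CPM, log axis) of the 5 most-read circRNAs of each gene in every library, IL-1β left of control. In Nbas, circRNA.5636 lies lower and circRNA.5693 higher under IL-1β. Most Exoc4 circles overlap between the groups, and of the Vwa8 circles circRNA.9508 and circRNA.9533 do.

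The leading Vwa8 circles were close to each other in reads and varied between libraries of 1 group. First came circRNA.9508 (chromosome 14, 78982236 to 78995163), with 90 and 117 reads under IL-1β against 83 and 186 in control. It held 9.10% of the Vwa8 reads, below the leading share in each of the 19 hosts with 50 to 80 circles. Next were circRNA.9533 (79056647 to 79065005), with 121 and 43 reads under IL-1β against 146 and 93 in control, and circRNA.9519 (78994400 to 79026077), with 52 and 84 under IL-1β against 139 and 126 in control. The first of these overlapped between the groups and the second did not (log2 change -0.63 ± 0.40).

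Reads of circRNA.9527 (79009164 to 79026077) numbered 89 and 144 under IL-1β against 49 and 102 in control. It stood at 123 ± 35.2 CPM under IL-1β and 62.7 ± 29.4 CPM in control, a log2 change of 0.97 ± 0.48 (adjusted p = 0.886 in edgeR). The groups did not overlap in CPM. It shares its end with circRNA.9519, whose change was below 0, and the end itself, 79026077, had 295 and 327 reads under IL-1β against 294 and 367 in control. For circRNA.9486 (78925262 to 78949577) the reads were 32 and 67 under IL-1β against 91 and 122 in control (log2 change -0.77 ± 0.50). None of these 5 circles had an unadjusted p under 0.05.

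Circles read in each IL-1β library and not in controls made up 3 of the 67 in Vwa8, 5 of the 59 in Exoc4 and 0 of the 69 in Nbas, against 2.45% of all circRNAs. The reverse pattern was seen for 1 circle of Vwa8 and 0 of the others, against 2.72%. Circles read in 1 library cannot show either pattern, and they made up 58.6% of all circRNAs against 47.2% of the members. The shares are therefore not on a like base and were not tested. Among the circles read under IL-1β only, circRNA.9501 of Vwa8 had 6 and 11 reads and circRNA.32429 of Exoc4 had 4 and 10. In Vwa8 circRNA.9518 (78994400 to 79020686) had 31 and 16 reads under IL-1β, and circRNA.9521 (78994400 to 79065005) had 14 and 26. Against a floor of 3 reads per library these were at least 10.0-fold and 8.37-fold higher under IL-1β, bounds that cover counting error only (unadjusted p = 0.0243 and 0.0389, adjusted p = 0.886 in edgeR). With 1 IL-1β library left out the bound ran from 6.53-fold to 13.6-fold for circRNA.9518 and from 6.13-fold to 10.6-fold for circRNA.9521. Both circles passed the read filter through the IL-1β libraries alone. They were named for having the lowest p of the tested Vwa8 circles with a positive log2 change. Their bounds and p therefore describe circles picked for these values. Both begin at the start of circRNA.9519, the circle that had fewer reads under IL-1β.

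The Vwa8 circle of the reverse pattern was circRNA.9495 (78933672 to 78995169), with 0 reads in each IL-1β library and 151 and 1 in the controls, so that control 1 alone carried it. Both of its ends lie 6 nt beyond those of circRNA.9492 (78933666 to 78995163), which had 91 and 30 reads under IL-1β against 96 and 40 in control. Summed, an alternative added after the pair was seen, they had 91 and 30 reads under IL-1β against 247 and 41 in control, and the log2 change was -0.90 ± 0.90 (adjusted p = 1.00 in edgeR). No member junctions lay within 5 nt of each other at both ends.

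In Exoc4 the leading circle was circRNA.32418 (chromosome 6, 33296733 to 33347957), with 210 and 183 reads under IL-1β against 159 and 216 in control. It stood at 209 ± 30.6 CPM under IL-1β and 156 ± 28.8 CPM in control, a log2 change of 0.42 ± 0.31 (adjusted p = 0.893 in edgeR). The circle held 23.4% and 18.8% of the Exoc4 reads under IL-1β and 11.8% and 17.8% in control. The next was circRNA.32426 (33332211 to 33347957), which shares its end and had 96 and 119 reads under IL-1β against 150 and 146 in control (log2 change -0.12 ± 0.33).

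The other leading Exoc4 circles were wide and overlapped between the groups. Reads of circRNA.32458 (33757967 to 33862239) numbered 64 and 29 under IL-1β against 76 and 110 in control. For circRNA.32433 (33347783 to 33442039) they were 50 and 79 under IL-1β against 98 and 42 in control, and for circRNA.32421 (33296733 to 33442039) 54 and 24 under IL-1β against 112 and 44 in control. Likewise circRNA.32428 (33332211 to 33442039) had 19 and 44 reads under IL-1β against 114 and 45 in control, with control 1 far above the rest. The log2 changes of these circles ran from -1.02 ± 0.70 to 0.20 ± 0.58. The lowest p on the lower side was that of circRNA.32427, all of whose 38 reads were in control 1 (unadjusted p = 0.135).

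A pair of Exoc4 ends 58 nt apart differed in where they were read. The end 33442039, the busiest of the gene, had 180 and 306 reads under IL-1β against 378 and 199 in control, summed over 11 circles, and the groups overlapped. The end 33442097 closed 4 circles and had 25 and 28 reads under IL-1β and 0 in each control. This is at least 10.9-fold higher against a floor of 3 reads per library, with the IL-1β reads taken as measured. Its unadjusted p was 0.0166 and its adjusted p 0.903 in edgeR, and it passed in DESeq2 with an adjusted p of 0.0478. Of ends with at least 20 reads 2.66% were read in each IL-1β library and not in controls. This end was singled out after its values were seen, and it passed the filter of 20 reads through the IL-1β libraries alone. Its bound and p therefore describe an end picked for these values.

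Of the 4 circles with that end 3 start where a circle with the busier end also starts. From the start 33438380, circRNA.32445 had 15 and 15 reads under IL-1β and 0 in each control, while circRNA.32444 had 0 and 41 under IL-1β and 4 and 23 in control. From 33332211, circRNA.32429 had 4 and 10 reads under IL-1β and 0 in control. With the busier end, circRNA.32428 had 19 and 44 reads under IL-1β and 114 and 45 in control. From 33427228, circRNA.32439 had 6 reads in IL-1β 1 only, and circRNA.32438, with the busier end, had 13 in IL-1β 2 only. At that start the busier end was thus also read under IL-1β only. The start 33438380 also opened circRNA.32447 (to 33580078), with 26 and 9 reads under IL-1β and 0 in each control, at least 7.53-fold higher (unadjusted p = 0.0537, adjusted p = 0.886 in edgeR). Without IL-1β replicate 1 that bound was 3.67-fold, and without IL-1β replicate 2 it was 11.4-fold. The circle circRNA.32447 passed the read filter through the IL-1β libraries alone. It was named for having the lowest p of the tested Exoc4 circles with a positive log2 change. Its bound and p therefore describe a circle picked for these values.

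A pair of Nbas starts, further apart than the Exoc4 ends, held 1 start that was read in controls only. The start 13453053 had 60 and 43 reads under IL-1β against 89 and 85 in control. The start 13453485, which lies 432 nt downstream and opened 5 circles, had 0 reads in each IL-1β library and 9 and 56 in the controls (unadjusted p = 0.0257, adjusted p = 0.903 in edgeR). Each of its 5 circles was read in 1 control library only, and control 2 held 56 of the 65 reads. The start 13453485 passed the filter of 20 reads through the controls alone. Of ends with at least 20 reads 4.09% were read in each control and in no IL-1β library. Of the 98 member ends 1 was higher and 5 were lower at an unadjusted p under 0.05, against 1.69% and 1.98% of all ends (3.66% together), and 4 of these 6 belong to circRNA.5636 or circRNA.9495.

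**Figure D5:**
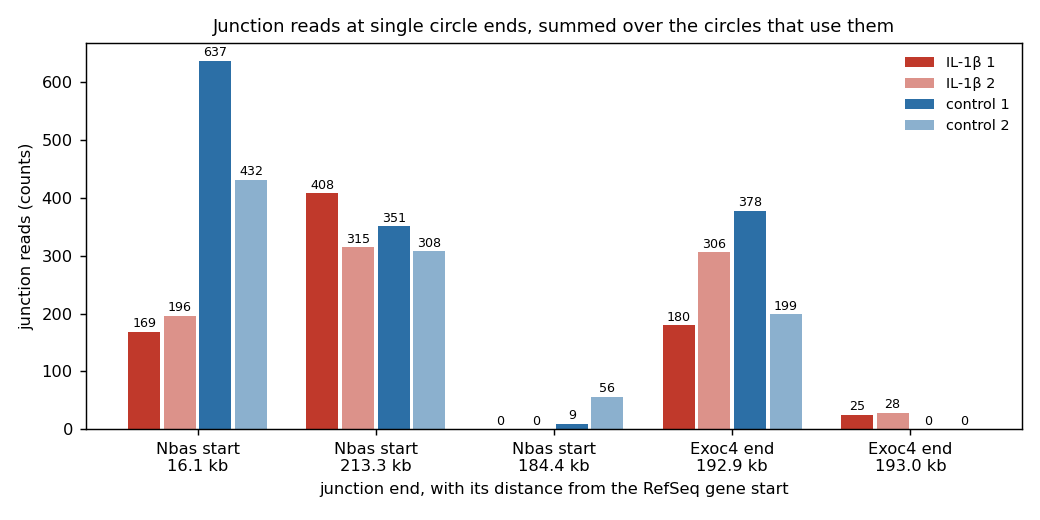
Junction reads (counts, not scaled for depth) at 5 circle ends in each library, IL-1β left of control, summed over the circles that use the end. The Nbas start at 16.1 kb was lower under IL-1β, and the Exoc4 end at 193.0 kb was read 25 and 28 times under IL-1β and 0 times in control.

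Genes whose products work with these proteins were listed for comparison. Rint1 and Zw10, which form the tethering complex with Nbas, had 3 and 6 circles, and of the other exocyst subunits Exoc6b had the most with 21. Of 15 genes of the exocyst, its small GTPase partners and Rab3ip, Exoc4 left out, 12 had circles. In all 11 could be tested, and 0 passed higher and 0 lower in edgeR. The lowest p values were those of the subunits Exoc6b, with 957 and 1308 reads under IL-1β against 1212 and 875 in control, and Exoc1, with 11 and 19 under IL-1β against 52 and 32 in control. Their median log2 change was -0.11, against -0.03 for all hosts.

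Of 18 genes of Golgi-to-ER tethering and the COPI vesicle coat 12 could be tested, and 0 passed in either direction (median -0.12). The tether subunit Rint1 had 21 reads in control 2 alone. Scfd1, a regulator of membrane fusion, had 30 and 3 reads under IL-1β against 0 and 10 in control. Zw10 had 38 and 35 under IL-1β against 42 and 60 in control.

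Of 15 genes of nonsense-mediated decay 9 could be tested, and 0 passed in edgeR (median 0.22). Upf2, which bridges the decay factors Upf1 and Upf3, had 303 and 228 reads under IL-1β against 168 and 146 in control. Its log2 change was 1.08 ± 0.32 (adjusted p = 0.882 in edgeR, 0.0453 in DESeq2), and it was the only gene of these lists with an unadjusted p under 0.05. Smg6, an endonuclease of the pathway, had 52 and 118 reads under IL-1β against 153 and 152 in control.

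Of 11 genes of mitochondrial AAA+ ATPases other than Vwa8 10 could be tested, and 0 passed in either direction. The log2 change was below 0 in 8 of the 10, against 2539 of all 4879 hosts. Its median was -0.28, against -0.03 for all hosts, and 0 of the 10 had an unadjusted p under 0.05 in edgeR. Afg1l had 47 and 93 reads under IL-1β against 109 and 136 in control, and the inner membrane protease Yme1l1 had 71 and 43 under IL-1β against 54 and 46 in control.

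The hosts with the most similar output were named by the smallest Euclidean distance in log2 CPM over the 4 libraries. For Nbas these were Lcor (0.27), Creb1 (0.30) and Cbfb (0.31), for Vwa8 Prrc2b (0.12), Dlg1 (0.17) and Abcc1 (0.20), and for Exoc4 Fam193a (0.15), Rsrc1 (0.20) and Spata5 (0.21). With 4 libraries such a distance mainly reflects a like level.

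Markers of cell type were checked by circle reads only, since linear expression was not analysed here. Of 12 chondrocyte markers 3 had circles, Sox5, Sox6 and Hapln1, and Col2a1, Acan and Sox9 had 0 reads. Macrophage markers had 0 reads, endothelial markers 8 reads in IL-1β 1 and muscle markers 7 reads in control 1. Runx2 was the only 1 of 4 osteoblast markers with circles, and had 336 and 360 reads under IL-1β against 320 and 511 in control. Circles of 4 of 6 fibroblast and synovium markers summed to 80 and 65 reads under IL-1β against 167 and 241 in control, and those of the chondrocyte markers to 243 and 317 under IL-1β against 481 and 277 in control, while Thy1 and Fap had 0. The part of this in the lower Nbas values was not tested, and in bulk RNA fewer cells of a type cannot be told apart from less RNA per cell.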

How the data were processed

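Per the file headers, the authors deposited whole-number counts of back-splice junction reads and SRPBM, a depth-scaled signal that equals the counts divided by 1 constant per library (11.9 and 13.4 under IL-1β, 11.8 and 16.1 in controls). The submitters' processing notes name mm10 and Bowtie2. For the circRNA caller and its filters, the sources used here give no name. CircRNA numbers reach 41588, and those not listed were not analysed here. The treatment text is the same for all samples, so the source label set the controls. Coordinates are as deposited.

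Each circRNA was placed in the RefSeq gene (GRCm38.p6) that held its 2 ends, coding genes first. Counts of circRNAs, hosts or ends with at least 20 reads entered the quasi-likelihood test of edgeR 4.0.16 (R 4.3.3, TMM factors) and, as an alternative, DESeq2 1.42.0, each adjusted over all features at 0.05. The SE is the size of the log2 change over the root of its F statistic. Floors cover counting error only, since PCR copies are not independent molecules. They apply to the group with 0 reads, and the reads of the other group enter a bound as measured. The floor of 3 reads equals 3.30 and 3.07 CPM under IL-1β and 2.57 and 2.46 CPM in controls.

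The members and lists were chosen with earlier results of these data known. Circles named are the 5 most read of each gene, the 2 with the lowest p in each direction, the widest and narrowest, and others singled out after their values were seen. Also named are the ends used by the most circles and the 2 tested hosts of each list with the lowest p. Alternatives were DESeq2, a replicate block, library totals, RLE factors, SRPBM depth, other read filters, each library left out, other junction and host definitions, and sums without single circles. Of the other hosts with 50 to 80 circles, those with the most reads, which the rule also picks, are not reported here.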

Additional observations from a re-analysis of the deposited data

How the results depend on the processing

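None of the alternatives brought Nbas, Vwa8 or Exoc4 as hosts past an adjusted p of 0.05. The log2 change of Nbas ran from -0.51 with SRPBM depth to -0.07 without control replicate 1, and that of Exoc4 from -0.36 to -0.04, both with the sign kept. With 1 library left out the Nbas change was -0.42 to -0.07 and the Exoc4 change -0.20 to -0.04. Vwa8 changed sign with library totals (0.0361) and ran from -0.0798 to 0.1104 with 1 library left out. The number of member circles called was 0 in edgeR and 1 with the replicate block, with DESeq2 and without a read filter, and 0 with each library left out and with junctions within 5 or 6 nt summed. The circle was circRNA.9495 with the block and without the filter, and circRNA.5636 in DESeq2. Same-numbered libraries were not treated as pairs in the main fit, since the labels state no pairing. Their deviations from the group means had a correlation of 0.033 over 2209 hosts. With 2 libraries per group this does not settle whether they share a culture or animal. The block gave 61 circRNAs and 20 hosts in all, against 3 and 0 without it. In the nonsense-mediated decay list DESeq2 called 1 host, Upf2, against 0 in edgeR. Among leading circles, the sign turned for circRNA.9508 with the block (0.0609) and for circRNA.32433 with SRPBM depth (-0.11). With 1 library left out the log2 change ran from -0.50 to 0.62 for circRNA.9508, from -1.20 to 0.39 for circRNA.9533, from -0.30 to 0.95 for circRNA.32433 and from -1.43 to 0.19 for circRNA.32421, while these kept their sign: circRNA.5636 (-1.52 to -0.97), circRNA.5693 (0.21 to 0.68), circRNA.5665 (0.02 to 0.76), circRNA.9527 (0.53 to 1.55) and circRNA.32428 (-1.69 to -0.19). The cause of these shifts was not tested. The leading share ran from 17.4% to 21.7% in Nbas, 7.73% to 10.5% in Vwa8 and 16.2% to 20.03% in Exoc4. With junctions within 6 nt joined Vwa8 had 66 circles in place of 67. Circle numbers were the same with at least 2 reads, without the span tolerance and with junctions within 5 nt joined. Those alternatives could not change them, since no member had under 2 reads, lay at a gene edge or had a neighbour within 5 nt. Without a read filter all 195 members entered the fit, and of the 99 with under 20 reads 0 passed and 0 had an unadjusted p under 0.05.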

Other observations

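Further ends with reads in 1 group only, singled out after their values were seen, were the Nbas end 13317761, with 0 reads in each IL-1β library, against 7 and 15 in controls, and the Vwa8 start 79009075, with 18 and 5 reads under IL-1β and 0 in each control. Neither passed in edgeR (adjusted p = 0.903 for each), and their 22 and 23 reads are close to the filter of 20.

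The read-rich circles of the downstream Vwa8 block were few. The most read there was circRNA.9553 (chromosome 14, 79157072 to 79164212), with 40 and 66 reads under IL-1β against 104 and 31 in control, and the end 79103696 closed 6 circles with 88 reads in all, of which control 2 had 0.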
